A study of Rattus norvegicus with 9 samples.

Results

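The genes described here code for the collagens, the laminins and the integrins of the rat hypothalamus. Members were taken by symbol alone: every probe set, the group of short probes that reads 1 transcript, whose single platform symbol was a collagen chain, a laminin chain, or a name starting with Itga or Itgb. This gave 77 genes on 112 probe sets, out of 14217 genes on 20826 probe sets with 1 symbol. There were 41 collagen genes, 10 laminin genes and 26 genes with an integrin name, of which 22 code for integrin subunits. The other 4, Itgb1bp1, Itgb1bp2, Itgb3bp and Itgbl1, share the letters of the name but are not subunits.

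The samples were 9 Affymetrix arrays, each of the hypothalamus of 1 female rat of normal sexual development. There were 3 juvenile rats at day 26, which the labels treat as the controls, 3 early pubertal rats at day 29 and 3 late pubertal rats at day 31. No strain, treatment, batch, dissection or pooling is given for any group. Stage and age are therefore the same variable. With each array taken as 1 rat from its title, the p-values between stages set a difference against the spread between rats of a stage. That spread is partly estimated from all tested probe sets together.

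Collagens are triple helices of protein chains, and they form fibrils, sheets or short filaments outside cells. Laminins are cross-shaped trimers of an alpha, a beta and a gamma chain that, with the collagen IV network, make the basement membrane under vessels and over the brain surface. Integrins are alpha and beta pairs in the cell membrane through which cells hold on to both. In brain, fibrillar collagens belong mainly to the meninges and to fibroblasts around vessels, collagen IV and laminins mainly to vessel walls.

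Some collagen genes lie head to head and share the stretch of DNA from which both are read. In the RefSeq annotation of build GRCr8, the start sites of Col4a2 and Col4a1 face away from each other with 76 bases between them. The start sites used for Col4a6 and Col4a5 do so with 1414 bases between them. Other transcripts of Col4a6 and Col4a5 start earlier, so 1414 bases is not the gap between the whole genes. Both pairs are compared array by array below. The first line shows the whole Col4a2 to Col4a1 stretch at chr16:84885521-84885596, read on the plus strand towards Col4a1. The second shows the far end of the Col1a2 window at chr4:33518307-33518411 on the plus strand, since Col1a2 had the highest correlation among the pairs tested below. Capitals mark matches to the TATA box letters TATAAA, to the CCAAT box letters CCAAT and to the GC box letters GGGCGG. Both strands were searched, so a match on the minus strand stands as its reverse complement.
Col4a2 to Col4a1: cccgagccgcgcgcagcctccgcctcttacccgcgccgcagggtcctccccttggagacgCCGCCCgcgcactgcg
Col1a2: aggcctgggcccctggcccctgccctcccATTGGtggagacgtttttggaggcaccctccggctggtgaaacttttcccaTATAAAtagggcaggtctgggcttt

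The stretch between Col4a2 and Col4a1 held 1 GGGCGG motif and no TATAAA or CCAAT, and the Col1a2 stretch held 1 TATAAA and 1 CCAAT. The Col1a2 stretch ends at 33518411 and the annotated start is at 33518557, so both of its matches lie well before that start. Promoter windows matched 60 of the 77 genes, counted with 1 window per gene, while the share of all promoters counts every one listed. In the 250 bases before the start, GGGCGG was found in 31 of the 60 (51.7%), against 30.5% of all 33469 promoters. CCAAT was found in 15 (25%), against 34% of all promoters, and TATAAA in 6 (10%), against 12.9%. None of these 3 motifs contains another, though neighbouring matches can share end letters, and a match is only a match of letters.

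Levels below are log2(signal + 16) after quantile normalization, and each triplet runs through juvenile rats 1, 2 and 3, early pubertal rats 7, 8 and 10 or late pubertal rats 12, 14 and 20. Probe sets under the 40th percentile of mean level were not tested, which left 71 of the 112 member probe sets and 56 of the 77 genes: 31 collagens, 9 laminins, 13 integrin subunits and 3 of the other genes. Just inside the limit of 6.30 stood 1 probe set each of Col4a6 at 6.31, Col22a1 at 6.35 and Lamb3 at 6.43, and just outside it 1 probe set each of Col11a1 at 6.25, Itga9 at 6.23 and Lama5 at 6.23. The 21 genes below the limit, with mean levels of 4.40 to 6.23, were Col4a4, Col6a5, Col6a6, Col7a1, Col9a1, Col10a1, Col13a1, Col17a1, Col20a1 and Col24a1, Lama3, and Itga1, Itga2b, Itga9, Itga11, Itgad, Itgam, Itgax, Itgb3, Itgb6 and Itgb1bp2. Detection calls were not used, so a level below the limit is not a statement that the gene was silent.

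Median signal per array ranged from 79.8 to 122 before normalization, and any 2 arrays correlated with r of 0.967 to 0.979 over probe sets. Of 20 hypothalamic neuron markers named on the array, 17 were above the limit, while Pomc, Sim1 and Otp were below it. Of the pituitary markers, Gh1, Prl, Pomc, Pou1f1 and Pitx1 were below the limit, while the hormone genes Cga, Tshb, Lhb and Fshb, and Tbx19, were above it. Cga had a mean level of 10.72, and Tshb ran from 6.04 to 9.18, highest on juvenile rat 2. These 5 had mean deviations of -0.28 to 0.47 from their own 9-array means, also highest on juvenile rat 2 and next on early pubertal rat 10, at 0.30. In whole tissue, fewer cells of a type and less RNA per cell cannot be told apart.

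Between stages, 0 of the 71 member probe sets passed an adjusted p of 0.05 in limma (Benjamini-Hochberg over 18625 probe sets) in any of the 3 comparisons or in the F test over stages. The background was the same, with 0% of all probe sets called in early pubertal against juvenile rats, in late pubertal against juvenile rats, in late against early pubertal rats and in the F test. Standard errors of the members' log2 differences ran from 0.08 to 0.32, with a median of 0.17. With 3 rats a stage, members several standard errors from 0 did not pass either, so a difference of that size can go undetected in this design. The smallest adjusted p of a member was 0.994 in early pubertal against juvenile rats, 0.99978 in late pubertal against juvenile rats and 0.914 in late against early pubertal rats.

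Differences of the members lay near 0 on both sides. In early pubertal against juvenile rats, 40 probe sets lay above 0 and 31 below, with a median log2 difference of 0.02, against -0.00142 over all tested probe sets. In late pubertal against juvenile rats, 41 lay above and 30 below with a median of 0.06, against -0.00148 over all tested probe sets. In late against early pubertal rats, 39 lay above and 32 below with a median of 0.04, against 0.000367 over all tested probe sets. At the level as deposited, without quantile normalization, the median of all probe sets itself shifted by -0.24 in early pubertal against juvenile rats and by 0.22 in late against early pubertal rats, and 7 and 66 of the 71 members lay above 0 in these comparisons. These signs are therefore relative to the rest of each array.

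At an unadjusted limma p under 0.05, early pubertal against juvenile rats had 0 members higher and 1 lower, where 1.92% and 2.54% of all probe sets were past it in those directions. Late pubertal against juvenile rats also had 0 higher and 1 lower, with backgrounds of 2.23% and 1.92%. Late against early pubertal rats had 2 higher and 0 lower, with backgrounds of 2.94% and 2.27%. The F test had 1 member under 0.05, against 4.22% of all probe sets. The members' shares, 0% to 2.82%, were each below the array's, so these counts are no result about the members.

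**Figure D1:**
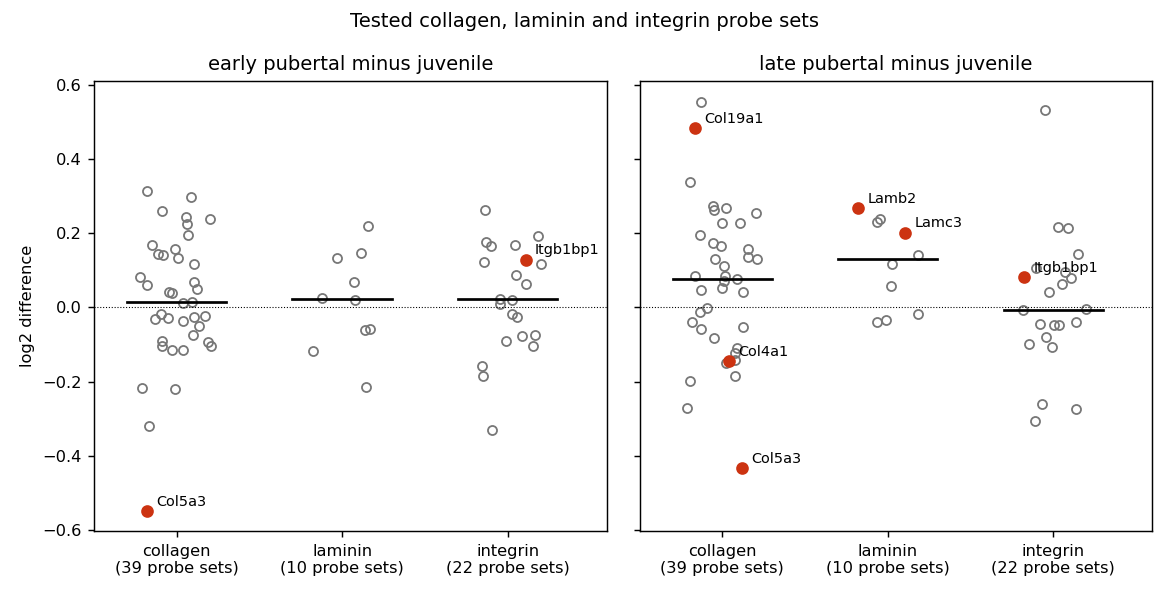
Log2 difference (vertical axis) of the 39 collagen, 10 laminin and 22 integrin-named probe sets that were tested, early pubertal minus juvenile on the left and late pubertal minus juvenile on the right. Each point is 1 probe set, the bar is the family median, and filled red points are those whose 3 pubertal arrays did not overlap the 3 juvenile arrays. Most points lie within 0.3 of 0, and Col5a3 is the lowest in both panels.

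Complete separation of the 3 arrays of one stage from the 3 of another was found for 0% to 5.63% of the tested member probe sets in each direction, below the share of the whole array in each case. In early pubertal against juvenile rats, 1 member lay entirely higher, Itgb1bp1, and 1 entirely lower, Col5a3, where the backgrounds were 3.86% and 4.43%. In late pubertal against juvenile rats, Col19a1, Itgb1bp1, Lamb2 and Lamc3 lay entirely higher, and Col5a3 and 1 of 2 Col4a1 probe sets entirely lower, with backgrounds of 5.9% and 5.52%. In late against early pubertal rats, Col9a2 and Lama2 lay entirely higher and none entirely lower, with backgrounds of 5.97% and 5.37%.

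**Figure D2:**
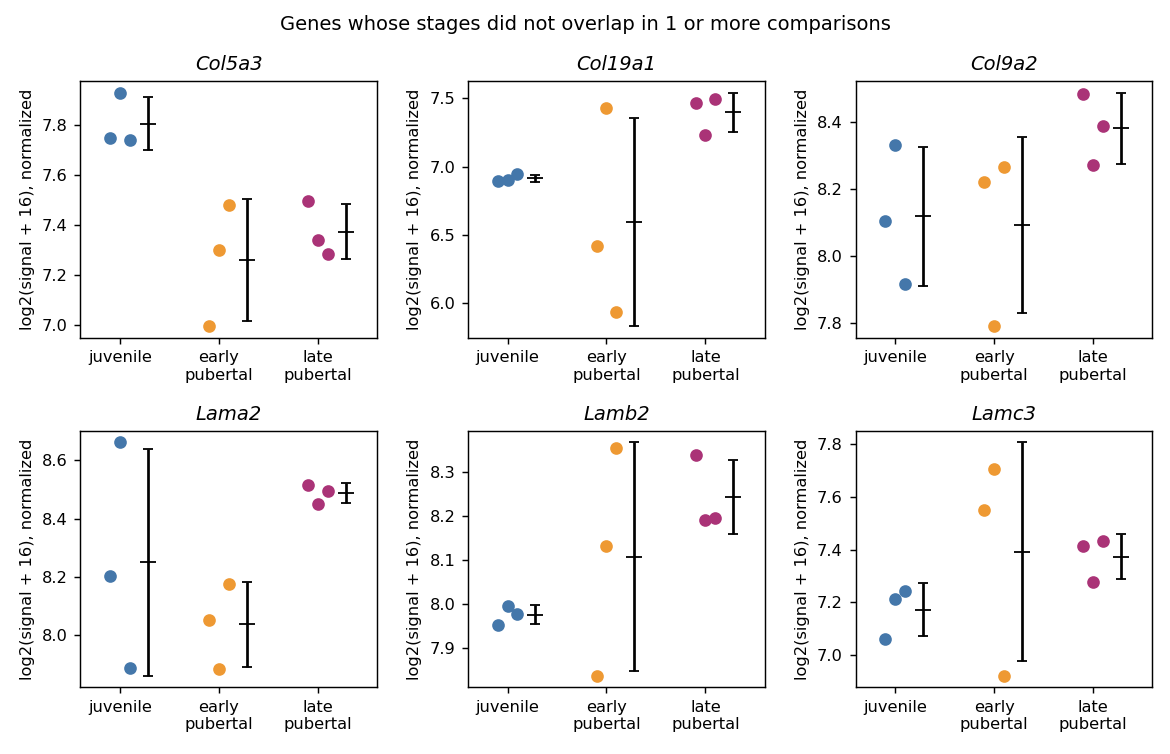
Normalized log2(signal + 16) of 6 genes (vertical axis, a separate scale per gene) in juvenile, early pubertal and late pubertal rats, with 1 point per rat and the mean ± SD of the 3 rats beside it. Col5a3 is highest in the 3 juvenile rats, and the early pubertal rats are widely spread for Col19a1, Lamb2 and Lamc3.

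Among the fibrillar collagens, Col5a3, a chain of collagen V, which helps start fibrils, stood farthest from 0. Its levels were 7.75, 7.93 and 7.74 in juvenile rats, 6.996, 7.30 and 7.48 in early pubertal rats and 7.50, 7.34 and 7.29 in late pubertal rats. All 6 pubertal rats lay below all 3 juvenile rats, and the pubertal stages overlapped. The log2 difference was -0.55 ± 0.15 (SE) in early pubertal against juvenile rats, with an unadjusted p of 0.00328 and an adjusted p of 0.994 in limma, and -0.43 ± 0.15 in late pubertal against juvenile rats, with an unadjusted p of 0.0135 and an adjusted p of 0.99978. The F test over stages gave an unadjusted p of 0.00791 and an adjusted p of 0.974, so the difference did not pass the test.

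The chains of collagen I, the main collagen of tough connective tissue and meninges, differed more within stages than between them. Col1a2 had levels of 10.68, 11.22 and 10.92 in juvenile rats, 10.87, 10.76 and 11.30 in early pubertal rats and 10.94, 11.30 and 11.04 in late pubertal rats. Its highest rat stood 1.54 times above its lowest, and the stage means spanned 0.16 log2 units against 0.62 between rats. Its late pubertal minus juvenile difference was 0.16 ± 0.16 (adjusted p 0.99978 in limma). Col1a1 had levels of 9.49, 9.68 and 9.56 in juvenile rats, 9.44, 9.74 and 9.95 in early pubertal rats and 9.51, 9.71 and 9.67 in late pubertal rats. The extremes of Col1a1, rats 7 and 10, were both early pubertal.

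Col3a1, the single chain of collagen III, which makes fine fibres in vessel walls, followed a like order. Its levels were 10.42, 10.69 and 10.39 in juvenile rats, 10.35, 10.48 and 10.92 in early pubertal rats and 10.60, 10.81 and 10.61 in late pubertal rats, with a late pubertal minus juvenile difference of 0.17 ± 0.13. Col5a2, another collagen V chain, read 9.52, 9.73 and 9.38 in juvenile rats, 9.51, 9.35 and 9.81 in early pubertal rats and 9.63, 9.68 and 9.81 in late pubertal rats, with a late pubertal minus juvenile difference of 0.16 ± 0.13. In both genes the stages overlapped, and rat 10 was first or second.

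Col5a1, the common partner chain in collagen V, was read by 2 probe sets. The brighter gave 7.75, 8.10 and 8.02 in juvenile rats, 7.89, 7.41 and 7.91 in early pubertal rats and 7.90, 8.16 and 8.06 in late pubertal rats, the other 7.13, 8.12 and 7.69, then 7.67, 7.31 and 8.12, then 7.49, 8.11 and 8.04 in the same stages. The late minus early pubertal difference was 0.30 ± 0.16 on the first and 0.18 ± 0.27 on the second, and neither separated the stages.

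Collagen IV forms the sheet of the basement membrane. Col4a1 read 8.998, 9.06 and 8.74 in juvenile rats, 8.71, 8.82 and 8.996 in early pubertal rats and 8.81, 8.88 and 8.69 in late pubertal rats on its brighter probe set. On the other it read 8.73, 8.96 and 8.76, then 8.54, 8.67 and 8.93, then 8.62, 8.68 and 8.71 in those stages, where each late pubertal rat lay below each juvenile rat. Both probe sets gave a late pubertal minus juvenile difference of -0.14 ± 0.12, and the separation was seen on only 1 of them. Its partner Col4a2 read 8.03, 8.02 and 8.17 in juvenile rats, 7.90, 8.39 and 8.35 in early pubertal rats and 7.82, 8.01 and 8.03 in late pubertal rats, with a late minus early pubertal difference of -0.26 ± 0.14.

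Col4a5, a chain of the less common collagen IV networks, read 10.48, 10.74 and 10.41 in juvenile rats, 10.63, 10.21 and 10.72 in early pubertal rats and 10.53, 10.64 and 10.68 in late pubertal rats. Rat 8 was its lowest and rat 2 its highest, and the largest difference between stage means, late minus early pubertal, was 0.09.

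Among the beaded filament collagens, Col6a1 read 8.44, 8.46 and 8.55 in juvenile rats, 8.45, 8.57 and 9.01 in early pubertal rats and 8.52, 8.82 and 8.50 in late pubertal rats. Col6a2 read 7.78, 7.82 and 8.002 in juvenile rats, 7.73, 7.83 and 7.76 in early pubertal rats and 7.49, 8.002 and 7.29 in late pubertal rats. Both chains are needed for collagen VI, and the array with the highest Col6a1, rat 10, was not high for Col6a2.

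Collagens that sit on fibrils, form short chains or span the membrane come next. Col19a1, found in basement membrane zones and, in mouse, made by some interneurons, read 6.90, 6.90 and 6.94 in juvenile rats, 6.42, 7.43 and 5.94 in early pubertal rats and 7.47, 7.23 and 7.49 in late pubertal rats. The late pubertal rats lay above the juvenile rats, while the early pubertal rats were spread from 5.94 to 7.43. The log2 difference was 0.80 ± 0.29 in late against early pubertal rats (unadjusted p 0.0178, adjusted p 0.914 in limma) and 0.48 ± 0.29 in late pubertal against juvenile rats. The late minus early pubertal value for Col19a1 was 0.47 without early pubertal rat 10 and 1.23 without early pubertal rat 8.

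Col9a2, a chain of the fibril-associated collagen IX known from cartilage, read 8.48, 8.27 and 8.39 in late pubertal rats, above the 8.22, 7.79 and 8.27 of early pubertal rats and overlapping the 8.10, 8.33 and 7.92 of juvenile rats. The late minus early pubertal difference was 0.29 ± 0.15. The closest rats of those stages both read 8.27, so the separation is a narrow one. Col8a1, a short-chain collagen of vessel walls, read 5.74, 6.64 and 6.41 in juvenile rats, 6.50, 6.11 and 6.90 in early pubertal rats and 6.89, 6.51 and 7.05 in late pubertal rats, a late pubertal minus juvenile difference of 0.55 ± 0.27 over overlapping stages and of 0.29 without juvenile rat 1. Col25a1, a neuronal membrane collagen, read 9.16, 9.05 and 9.46 in juvenile rats, 8.94, 9.19 and 9.50 in early pubertal rats and 9.04, 9.01 and 9.17 in late pubertal rats.

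The other 16 tested collagen genes showed no separation of stages on any tested probe set. The highest single departure among them was Col2a1, the main cartilage collagen, chosen here after its values were seen. It read 8.55 in juvenile rat 2 against 7.30 and 7.20 in the other juvenile rats, 7.49, 7.54 and 7.70 in early pubertal rats and 7.68, 7.47 and 7.34 in late pubertal rats.

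Of the laminins, 9 genes on 10 probe sets were tested. In late pubertal against juvenile rats 7 probe sets lay above 0 and 3 below with a median of 0.13, while in early pubertal against juvenile rats 6 lay above and 4 below with a median of 0.02. Lama2, the alpha chain whose loss causes a muscular dystrophy, read 8.20, 8.66 and 7.89 in juvenile rats, 8.05, 7.88 and 8.18 in early pubertal rats and 8.52, 8.45 and 8.50 in late pubertal rats. Late pubertal rats lay above early pubertal rats by 0.45 ± 0.17 (unadjusted p 0.0212, adjusted p 0.914 in limma), with the juvenile rats overlapping both.

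Lamb2, a beta chain of mature basement membranes, read 8.34, 8.19 and 8.20 in late pubertal rats, above the 7.95, 7.995 and 7.98 of juvenile rats, a difference of 0.27 ± 0.13 (unadjusted p 0.0703 in limma). Early pubertal rats, at 7.84, 8.13 and 8.36, covered both. Lamc3, a gamma chain, read 7.41, 7.28 and 7.43 in late pubertal rats, above the 7.06, 7.22 and 7.24 of juvenile rats by 0.20 ± 0.19, while early pubertal rats read 7.55, 7.71 and 6.92. In Lamb2 and Lamc3 alike the early pubertal stage was the most variable.

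Lamc1, the gamma chain of most laminins, read 9.11, 9.23 and 9.01 in juvenile rats, 8.92, 8.76 and 9.31 in early pubertal rats and 9.17, 9.22 and 9.30 in late pubertal rats. Its late minus early pubertal difference was 0.24 ± 0.13 on this probe set and 0.04 ± 0.16 on a dimmer one. Lamb1, a beta chain, ran from 7.78 to 8.21 over the 9 rats and differed by -0.06 to 0.03 between stages. Of the alpha chains of vessel laminins, Lama5 averaged 7.09 ± 0.15 in juvenile rats, 7.11 ± 0.06 in early pubertal rats and 7.32 ± 0.21 in late pubertal rats (SD, n = 3 each), and Lama4 averaged 7.07 ± 0.14, 7.14 ± 0.11 and 7.04 ± 0.23 in the same stages. Stages overlapped in all of these. Lama1 and Lamb3 overlapped as well.

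Among integrins, 13 subunits on 18 probe sets were tested, and none of these probe sets separated any stages. Itgb1, the beta subunit shared by most matrix-binding integrins, read 10.25, 10.29 and 10.02 in juvenile rats, 10.06, 10.34 and 10.52 in early pubertal rats and 10.19, 10.30 and 10.26 in late pubertal rats. Itga6, a laminin receptor with Itgb1, read 9.33, 9.43 and 9.26 in juvenile rats, 9.11, 9.33 and 9.35 in early pubertal rats and 9.19, 9.45 and 9.26 in late pubertal rats on its brightest probe set. Early pubertal minus juvenile differences for Itga6 were -0.08 ± 0.10 on this one, -0.16 ± 0.21 and -0.33 ± 0.23 on the dimmer ones.

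Itga3, another laminin receptor, ran from 9.22 to 9.78 with stage means of 9.47, 9.48 and 9.46 in juvenile, early and late pubertal rats. Itga7, the laminin receptor of muscle, read 7.57, 7.56 and 7.24 in juvenile rats, 7.19, 7.64 and 7.33 in early pubertal rats and 7.30, 7.07 and 7.08 in late pubertal rats. The late pubertal minus juvenile difference was -0.31 ± 0.16 on this probe set and -0.11 ± 0.28 on the other.

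Itgav, which with Itgb5 binds vitronectin, averaged 7.38 ± 0.47 in juvenile rats, 7.64 ± 0.33 in early pubertal rats and 7.33 ± 0.38 in late pubertal rats (SD, n = 3 each). Itgb5 averaged 8.45 ± 0.06 in juvenile rats, 8.56 ± 0.16 in early pubertal rats and 8.40 ± 0.14 in late pubertal rats. Its 2 probe sets went opposite ways over the arrays, with r of -0.34, and gave late minus early pubertal differences of -0.16 ± 0.12 and 0.09 ± 0.17. Of the leukocyte integrins, Itgb2 averaged 7.19 ± 0.06 in juvenile rats, 7.18 ± 0.28 in early pubertal rats and 7.24 ± 0.27 in late pubertal rats, and Itgae, Itgal and Itgb7 overlapped between all stages too.

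The integrin-named genes that are not subunits held the only separation among the tested probe sets of that family. Itgb1bp1, a protein that binds the tail of Itgb1 inside the cell, read 9.25, 9.26 and 9.19 in early pubertal rats and 9.16, 9.24 and 9.16 in late pubertal rats, against 9.12, 9.09 and 9.10 in juvenile rats. All 6 pubertal rats were higher, by 0.13 ± 0.08 in early pubertal and 0.08 ± 0.08 in late pubertal rats, with adjusted p of 0.994 and 0.99978 in limma. The early pubertal difference turned to -0.13 at the deposited level. Itgb3bp, a centromere protein, had late pubertal minus juvenile differences of 0.21 ± 0.15 and 0.53 ± 0.32 on its 2 probe sets over overlapping stages.

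Array by array, the collagens differed between rats of the same stage. Taking the brightest probe set of each of the 31 collagen genes, 6, 22 and 8 lay above their own 9-array mean in juvenile rats 1, 2 and 3. The counts were 11, 11 and 27 in early pubertal rats 7, 8 and 10, and 13, 22 and 19 in late pubertal rats 12, 14 and 20. Every stage thus held at least 1 rat in which most collagens were high: juvenile rat 2, early pubertal rat 10, and late pubertal rats 14 and 20.

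Of the 6 chains of collagens I, III and V, Col5a3 included, 1, 6 and 2 lay above their mean in juvenile rats, 0, 1 and 5 in early pubertal rats and 3, 5 and 5 in late pubertal rats. Their mean deviation ran from -0.20 in rat 8 to 0.19 in rat 10, both early pubertal. The chains did not all follow 1 order: over their 15 pairs r ran from 0.00192 for Col1a1 with Col5a1 to 0.88, with a median of 0.45, and Col5a3 had r of 0.04 to 0.20 with the others. Laminins had 1, 5 and 3 of 9 above their mean in juvenile rats, 2, 6 and 5 in early pubertal rats and 7, 5 and 6 in late pubertal rats. Integrin subunits had 6, 9 and 3 of 13 in juvenile rats, 6, 8 and 7 in early pubertal rats and 7, 7 and 5 in late pubertal rats, with mean deviations no larger than 0.05 either way.

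**Figure D3:**
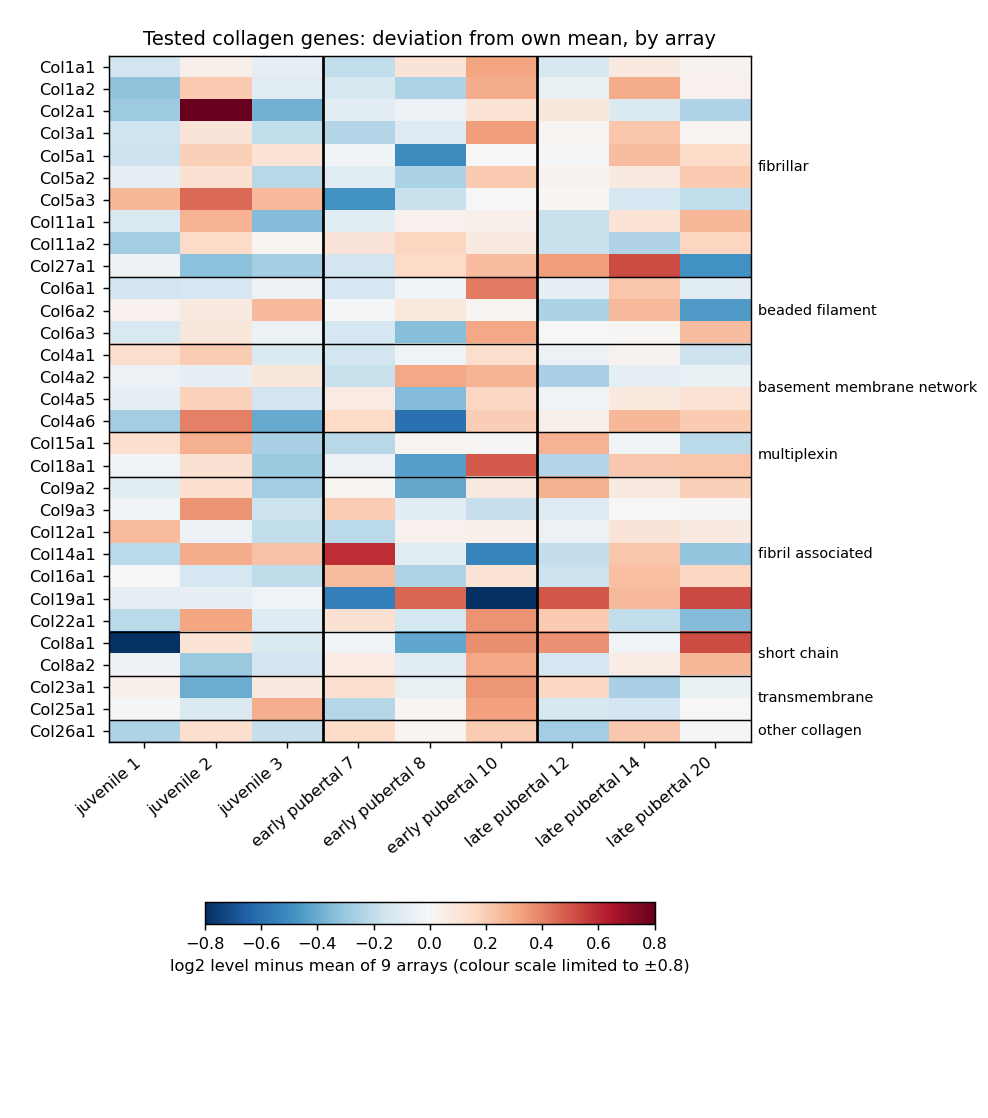
Deviation of each tested collagen gene (rows, brightest probe set, grouped by type) from its own mean over the 9 arrays (columns, in order of stage), in log2 units, red above and blue below the mean, with the colour scale limited to 0.8 either way. Columns of juvenile rat 2, early pubertal rat 10 and late pubertal rats 14 and 20 are mostly red, with 22, 27, 22 and 19 of 31 genes above their mean.

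The 10 pairs of genes whose products assemble or are laid down together and that could be tested were compared over the 9 arrays, each with an exact two-sided permutation p adjusted over the 10 pairs. A further pair, Itgam with Itgb2, had no Itgam probe set above the limit. Col1a2 and Col3a1 correlated with Pearson's r = 0.88 (exact permutation p = 0.00245, adjusted 0.0245) and Spearman's rho = 0.862 (adjusted exact permutation p = 0.0473). Col1a1 and Col3a1 correlated with r = 0.80 (exact permutation p = 0.00795, adjusted 0.0397) and rho = 0.767 (adjusted exact permutation p = 0.104). Without the 2 arrays farthest from the first gene's median, r was 0.73 (rats 10 and 14 left out) and 0.50 (rats 7 and 10 left out) over 7 arrays, with exact permutation p of 0.0625 and 0.245. Leaving out a gene's extreme arrays narrows its range, which by itself can lower r, and 7 arrays give a weaker test. These values therefore cannot decide whether the relations depend on those rats.

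The number of pairs past an adjusted exact permutation p of 0.05 ranged from 0 to 3 with each array left out in turn. Each such test had fewer arrays, which can change the count by itself. Of the 2 pairs past an adjusted p of 0.05, 0 passed without juvenile rat 2, early pubertal rat 10, late pubertal rat 14 or late pubertal rat 20, and 1 passed without juvenile rat 1, juvenile rat 3 or early pubertal rat 7. With each array left out in turn, r ranged from 0.85 to 0.90 for Col1a2 with Col3a1 and from 0.64, without early pubertal rat 10, to 0.896 for Col1a1 with Col3a1.

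Within stages the correlations were as large, but did not pass after adjustment. After each stage's mean was subtracted, r was 0.87 for Col1a2 with Col3a1 and 0.88 for Col1a1 with Col3a1, each with an exact permutation p of 0.0324 and an adjusted p of 0.0926 over permutations within stages. Itga6 and Itgb1 had r = 0.62 as measured (adjusted exact permutation p = 0.144) and r = 0.82 within stages, with an exact permutation p of 0.00463, the smallest that the 216 pairings within stages allow, and 0.0463 after adjustment. Chains of collagen I, Col1a1 and Col1a2, had r = 0.65 (adjusted exact permutation p = 0.144).

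Col4a1 and Col4a2, partners in 1 molecule and read from the short stretch of DNA printed above, had r = 0.20 (adjusted exact permutation p = 0.652) and rho = 0.2. Their r was 0.17 within stages, and 0.43 with the other Col4a1 probe set. The other pairs had r of 0.61 for Col5a1 with Col5a2, 0.48 for Lamb1 with Lamc1, 0.29 for Lama4 with Lamc1, 0.27 for Col6a1 with Col6a2 and 0.16 for Itgav with Itgb5, with adjusted exact permutation p of 0.144 to 0.69. A p above the threshold does not show that the genes of a pair vary independently.

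Over all 465 pairs of tested collagens, 14 had r above 0.8, or 3.01%, against 0.965% of all pairs of tested probe sets, with a median r of 0.17 against -0.001. With stage means removed the shares were 3.44% and 2.45%. The collagen pairs used only the brightest probe set of each gene, while the share of all pairs used all 18625 tested probe sets, dim ones included. The 2 shares are thus not from like selections. These pairs also share the same 9 arrays and many genes, so the shares are descriptions. The 14 pairs were made by 10 genes: Col4a5 and Col5a2 were in 5 pairs each, Col4a6, Col6a3, Col9a2 and Col18a1 in 3 each, Col1a1 and Col3a1 in 2 each, and Col1a2 and Col6a1 in 1 each.

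The highest of the 465 was Col4a5 with Col4a6, the other head-to-head pair, singled out after its value was seen. Col4a6 read 6.85, 7.53 and 6.72 in juvenile rats, 7.28, 6.53 and 7.32 in early pubertal rats and 7.17, 7.39 and 7.33 in late pubertal rats, low in rats 1, 3 and 8 as Col4a5 was. Over the 9 arrays r was 0.96, and it was 0.94 to 0.97 with each array left out in turn. Without rats 3 and 8, the farthest from the Col4a5 median, r was 0.89. The lowest r over the alternatives was 0.86. A dimmer Col4a6 probe set, near the limit at 6.31, gave r of 0.59 with Col4a5. Probe sets for 1 gene give a scale for these values: over 16 pairs of probe sets of 14 member genes the median r was 0.63, with a range from -0.34 to 0.96, and those of Col1a2 and Col5a2 reached 0.96 and 0.92.

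**Figure D4:**
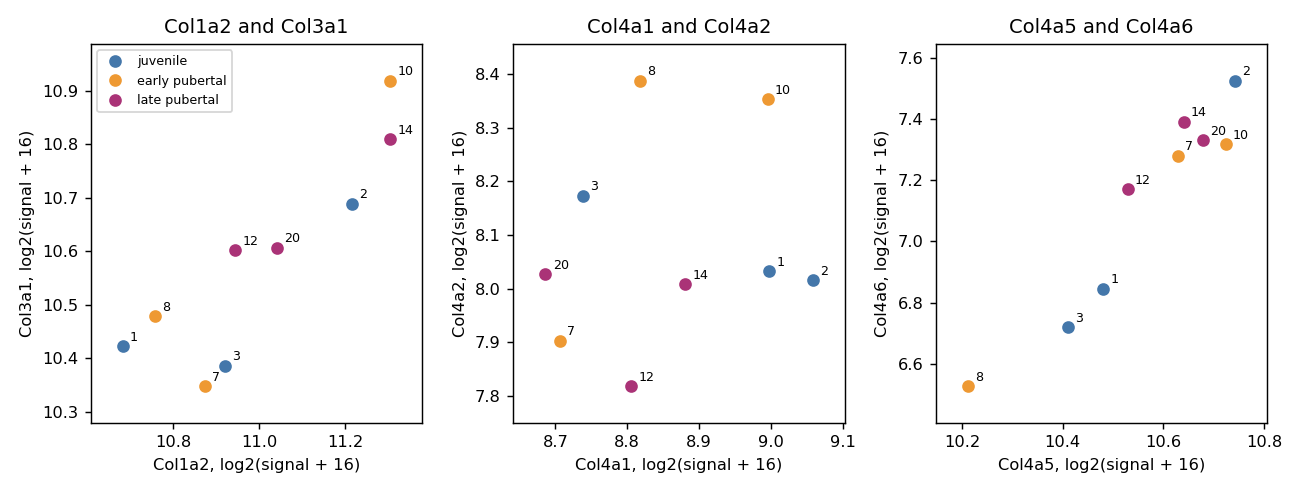
Normalized log2(signal + 16) of Col1a2 and Col3a1, Col4a1 and Col4a2, and Col4a5 and Col4a6 (both axes, brightest probe sets), with 1 point per rat, coloured by stage and labelled by rat number. Points run along a line for the left and right pair (r of 0.88 and 0.96) and scatter for the middle pair (r of 0.20), and the stages are mixed along each line.

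Markers of some other cells, not of all, were high in rats 10 and 14, where most collagens were high. Of 22 markers of leptomeninges and fibroblasts, which include no collagen, laminin or integrin, 21 were tested and Foxc1 was below the limit. Their mean deviation was -0.14, 0.00 and -0.20 in juvenile rats, -0.10, -0.18 and 0.31 in early pubertal rats and -0.03, 0.23 and 0.13 in late pubertal rats. Their summed signal was 11927 to 14113 in juvenile rats, 12424 to 17430 in early pubertal rats and 14029 to 16364 in late pubertal rats. Both were highest in rats 10 and 14, where 20 of the 21 markers lay above their mean and most collagens were high. In juvenile rat 2, where 22 collagens were high, 12 of the 21 markers lay above their mean. In late pubertal rat 20, where 19 collagens were high, 18 of the 21 markers did. Their part in the collagen levels was not tested.

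Mural cell markers, which share Vtn with that list, were 13 tested of 15, with Pdgfrb and Cspg4 below the limit, and deviated by -0.01, 0.03 and -0.24 in juvenile rats, -0.10, -0.19 and 0.27 in early pubertal rats and 0.08, 0.17 and -0.02 in late pubertal rats. Their summed signal was 2869 to 3791 in juvenile rats, 3093 to 4886 in early pubertal rats and 3754 to 4235 in late pubertal rats. Choroid plexus markers, with 6 of 13 above the limit and Kl, Kcnj13, Otx2, Cldn1, Cldn2, Kcne2 and Sostdc1 below it, deviated by -0.13, 0.07 and -0.16 in juvenile rats, -0.20, -0.11 and 0.17 in early pubertal rats and 0.21, 0.15 and -0.01 in late pubertal rats. The means of both lists were thus also high in rats 10 and 14, though not every marker was. Of the 13 mural markers, 10 lay above their own mean in rat 10 and 9 in rat 14. Abcc9 and Higd1b were below theirs in both rats. Of the 6 choroid plexus markers, 4 and 5 lay above their own mean in those rats. The choroid plexus mean was highest in rat 12, where 13 of 31 collagens lay above their mean. That value rested largely on Ttr, at 8.95 in rat 12 against a 9-array mean of 7.78. Folr1 and Igf2 were below their own means there, and 4 of the 6 markers above. The part of both lists in the collagen levels was not tested.

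Endothelial markers, 15 tested of 17 on the array, had deviations of -0.11 to 0.11, highest in rat 10 and lowest in rat 7, both early pubertal. The 14 astrocyte markers ran from -0.16 to 0.10, the 13 microglial markers from -0.11 to 0.09, and the 17 neuronal markers from -0.17 to 0.10. Red blood cell markers, of which only Hbb and Alas2 were above the limit, stood at 0.98 in late pubertal rat 14 and between -0.42 and 0.13 in the other rats. The 5 markers of tanycytes and GnRH neurons ran from -0.22 in rat 8 to 0.34 in rat 10, with Gnrh1 and Dio2 below the limit. Pituitary markers, 5 tested, stood at 0.47 in rat 2 and 0.30 in rat 10, but at -0.22 in rat 14 and -0.04 in rat 20. Their part in the collagen levels was not tested.

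**Figure D5:**
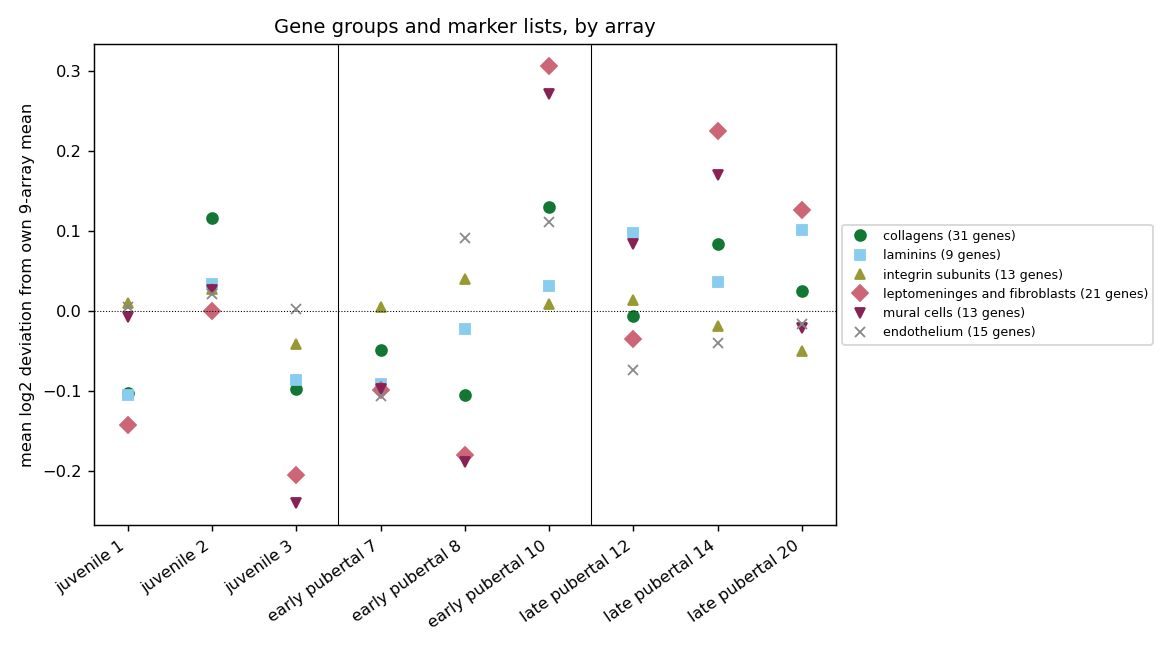
Mean log2 deviation from each gene's own 9-array mean (vertical axis) for the collagens, laminins, integrin subunits and 3 lists of cell type markers, on each array (horizontal axis, in order of stage). The means of the collagens and of the leptomeningeal and mural markers are high in early pubertal rat 10 and late pubertal rat 14, while those of integrin subunits stay within 0.05 of 0.

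Genes that make, cut or read the matrix gave 0 calls at an adjusted p of 0.05 in all 3 comparisons. Of the collagen synthesis and crosslinking genes, 16 were tested, of which 12 lay above 0 and 4 below in early pubertal against juvenile rats (median 0.03) and 8 each way in late pubertal against juvenile rats. P3h1, which hydroxylates collagen prolines, read 7.12, 6.77 and 7.10 in early pubertal rats against 6.52, 6.53 and 6.72 in juvenile rats, a difference of 0.41 ± 0.16 (unadjusted p 0.025, adjusted p 0.994 in limma).

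Of the matrix proteases and inhibitors, 15 were tested, 9 above 0 and 6 below in either pubertal stage against juvenile rats. Mmp14, a membrane-bound collagenase, read 8.97, 9.06 and 8.79 in early pubertal rats against 8.59, 8.76 and 8.17 in juvenile rats, a difference of 0.43 ± 0.15 (unadjusted p 0.0133, adjusted p 0.994 in limma). Other basement membrane and matrix glycoproteins, 20 tested, lay 11 above and 9 below 0 in each comparison. Their counts above the mean were 4, 18 and 4 in juvenile rats, 7, 7 and 15 in early pubertal rats and 8, 11 and 13 in late pubertal rats, high in rats 2 and 10 like the collagens. Integrin adaptors and signalling genes, 20 tested, lay 9 above and 11 below 0 in early pubertal against juvenile rats and 14 above and 6 below in late pubertal against juvenile rats, with medians of -0.00356 and 0.03.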

How the data were processed

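Each deposited value is an intensity, the linear-scale signal of 1 probe set, computed by the authors with MAS5 per the submitters' processing notes, whose version and target level are not given. Because the deposited levels differed between arrays by up to 1.42 times in trimmed mean, values were taken as log2(signal + 16) and quantile-normalized. Of 31099 probe sets, 57 controls were left out, and 18625 of the other 31042 lay above the 40th percentile of mean level. Genes were named from the platform annotation, where 20826 probe sets had 1 symbol, 436 several and 9780 none. limma 3.58.1 in R 4.3.3 fitted 1 mean per stage over the 9 arrays, with eBayes (trend; degrees of freedom 5.80 prior, 6 residual) and Benjamini-Hochberg adjustment over all tested probe sets. Correlations used scipy 1.17.1 with exact permutations. The code was tested on simulated data. Fold changes of dim probe sets are understated on this scale, and their number of arrays limits precision. Sequences came from RefSeq, build GRCr8.

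The members, gene lists and tests were chosen with earlier results of these data known. Full values are given for the 6 brightest genes of each family, the 4 with the smallest F-test p and the genes of the pairs. Other genes of each pathway list were named by smallest unadjusted p, at most 3 a list. Alternatives were other constants, filters, normalizations and fits, and each array left out in turn.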

Additional observations from a re-analysis of the deposited data

How the results depend on the processing

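The count of members past an adjusted p of 0.05 was 0 under every alternative run, 21 for each comparison and 20 for the F test. Over all probe sets, in place of 0, the deposited level called 10 in early pubertal against juvenile rats, 1 in late pubertal against juvenile rats, 21 in late against early pubertal rats and 16 in the F test; array weights called 1, and leaving out juvenile replicate 2 called 1, in late pubertal against juvenile rats, and without juvenile replicate 2 the F test called 1. Of 561 alternative values for the 33 differences tracked, 548 kept their direction and side of the threshold, 13 turned, and the lowest adjusted p was 0.111 in limma. At the deposited level, early pubertal minus juvenile was -0.12 for Col1a1 and -0.13 for Itgb1bp1, and late minus early pubertal was 0.0665 for the brighter Itgb5 probe set, where the median of all probe sets shifted by -0.24 and 0.22. With array weights the dimmer Lamc1 probe set was -0.0319 in late minus early pubertal rats. Leaving out some 1 array moved 25 of the 33 differences, none of them past the threshold, by over 1.5 times. With each array left out in turn, late minus early pubertal ranged from -0.0162 to 0.22 for Col5a3, -0.0189 to 0.39 for the dimmer Col5a1, -0.0896 to 0.18 for the dimmer Lamc1 and -0.0363 to 0.20 for the dimmer Itgb5 probe set; late pubertal minus juvenile ranged from -0.33 to 0.18 for the dimmer Itga7 probe set, early pubertal minus juvenile from -0.30 to 0.0471 for 1 of the dimmer Itga6 probe sets, and r of Col4a1 with Col4a2 from -0.0065 to 0.33. Pairs past an adjusted exact permutation p of 0.05 numbered 2 of 10, against 6 at the deposited level, 4 with the mean of all tested probe sets of a gene and 1 with deviations from stage means, where r of Itgav with Itgb5 was -0.0664; with each array left out they numbered 0 to 3, over fewer arrays. No paired analysis was possible because the stages share no replicate numbers. The cause of these changes was not tested otherwise.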
